A study of Mus musculus with 6 samples.

Results

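Expression was followed for 10 imprinted genes of 5 loci, *Peg3*, *Usp29* and *Zim1* of the *Peg3* locus, *Snrpn*, *Ndn* and *Magel2* of the *Snrpn* locus, *Peg10* and *Sgce* of the *Peg10* locus, *Mest* and *Plagl1*. The genes were chosen by name from the 55385 genes of the count table, and all 10 were found there. RNA was sequenced from G4 mouse embryonic stem cells (mESCs), a 129/Sv × C57BL/6 F1 hybrid line, in 3 genotypes of 2 libraries each: wild-type cells, cells in which the *Wnt6* anchor was deleted on one allele (heterozygous), and cells in which it was deleted on both (homozygous). The *Wnt6* anchor is a region at *Wnt6*, a developmental gene, that takes part in a long-range chromatin loop marked by H3K27me3, the histone mark of Polycomb, and it was removed with CRISPR-Cas9 in clones screened by PCR. Cells of every genotype were kept with LIF on CD1 feeder cells, so the counts hold RNA of mESCs and of feeders together, and they do not separate the 2 parental alleles. The comparisons ask how the level of each gene in the cells with a deletion stood against wild-type cells, and how the 2 deletion genotypes stood against each other.

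Imprinted genes are transcribed mainly from one parental copy, and the choice is set by DNA methylation that was laid down in one germline and kept through the early embryo. At all 5 loci the controlling region carries methylation on the maternal copy, and the paternal copy is the active one for most of the genes. *Peg3* encodes a large zinc finger protein, *Usp29* a protein of the ubiquitin-specific protease family, and *Zim1* a zinc finger protein that is known, unlike the others, for expression from the maternal copy in the mouse. *Snrpn* encodes the spliceosomal protein SmN, and *Ndn* and *Magel2* are single-exon genes of the MAGE family in the region homologous to that of Prader-Willi syndrome. *Peg10* is a gene derived from a retrotransposon and needed for the placenta, and its neighbor *Sgce* encodes a sarcoglycan, a membrane protein. *Mest* encodes a protein of the alpha/beta hydrolase fold, and *Plagl1* a zinc finger transcription factor. Several of these genes are also well expressed in mesenchymal cells, the class to which feeder fibroblasts belong.

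Positions are those of the GRCm38 build in the GENCODE annotation. On chromosome 7, *Zim1* (ENSMUSG00000002266) spans 6671269 to 6696450 and *Peg3* (ENSMUSG00000002265) spans 6703892 to 6730431, both on the minus strand, and *Usp29* (ENSMUSG00000051527) spans 6730578 to 6967219 on the plus strand. *Snrpn* (ENSMUSG00000102252) lies on the minus strand at 59982495 to 60140219. *Ndn* (ENSMUSG00000033585, 62346569 to 62350262) and *Magel2* (ENSMUSG00000056972, 62377010 to 62381640) are on the plus strand of the same chromosome. On chromosome 6, *Sgce* (ENSMUSG00000004631, 4674350 to 4747207, minus strand) and *Peg10* (ENSMUSG00000092035, 4747306 to 4760517, plus strand) start head to head, and *Mest* (ENSMUSG00000051855) spans 30723547 to 30748465 on the plus strand. *Plagl1* (ENSMUSG00000019817) spans 13060504 to 13131694 on the plus strand of chromosome 10. The *Wnt6* anchor is on chromosome 1, so none of the 10 genes lies on the chromosome that carries the deletion.

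Head-to-head pairs are a feature of the *Peg3* and *Peg10* loci. The annotated starts of *Peg3* and *Usp29* are separated by 146 bases, and those of *Sgce* and *Peg10* by 98 bases. The stretch between *Peg3* and *Usp29*, at chr7:6730432-6730577 of GRCm38 (plus strand, no annotated exon), is shown because it lies upstream of both genes of a pair whose levels differed widely. It holds 5 CpG sites, the dinucleotides that carry the methylation, and is written in lower case with no motif marked:
Peg3-Usp29: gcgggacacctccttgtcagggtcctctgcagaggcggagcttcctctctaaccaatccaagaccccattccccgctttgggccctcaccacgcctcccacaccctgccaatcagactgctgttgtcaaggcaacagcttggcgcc
The 250 bases before the RefSeq start of *Mest* at chr6:30737800-30738049 (plus strand, no annotated exon) hold 14 CpG sites and are shown because *Mest* was the gene that differed between the 2 deletion genotypes. Capitals mark the TGCCGC hexamer on the opposite strand, the core letters of the motif of ZFP57, a zinc finger protein that keeps methylation at imprinted regions:
Mest: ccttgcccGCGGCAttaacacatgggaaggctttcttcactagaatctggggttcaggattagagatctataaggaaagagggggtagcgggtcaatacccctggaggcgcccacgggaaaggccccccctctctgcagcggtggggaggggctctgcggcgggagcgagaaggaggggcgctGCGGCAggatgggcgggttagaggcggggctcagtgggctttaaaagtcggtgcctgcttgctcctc
*Peg10* is read in 2 overlapping frames, and a ribosomal slip joins them. A stretch of 30 bases around the slip site, at chr6:4755316-4755345 (plus strand) inside the first frame, is shown for the gene that rose most, with the 7 slippery bases in capitals:
Peg10: aattcgccgccGGGAAACtccccggccccg
No measurement of the slip itself was made in these data.

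The 6 libraries held between 23813912 and 28964706 counts, so 3 counts correspond to between 0.102 and 0.131 CPM, the counts relative to a library's total after adjustment of that total for its composition (TMM). All 10 genes passed the filter on low counts, at least 10 counts in at least 2 libraries, as did 16951 genes in all. The spread between 2 libraries of one genotype exceeded counting error, since a chi-square over genes per degree of freedom came to 2.31 in wild-type cells, 2.40 with the heterozygous deletion and 3.52 with the homozygous one. Nothing in the labels says whether the 2 libraries came from separate cultures or, with a deletion, from separate clones. The p-values thus measure the spread between these libraries only. An effect of a deletion cannot be told apart from a difference between clones. *Pou5f1* and *Nanog*, which define mESCs, were at 982 and 90.5 CPM in wild-type cells. A list of 24 fibroblast markers, which the feeder cells express, summed to 2236 and 2235 CPM in the wild-type libraries, 1575 and 1517 in the heterozygous and 1057 and 1029 in the homozygous. All 24 had counts; of the 22 tested, 17 were lower and 0 higher in heterozygous than in wild-type cells, and 18 were lower, 13 of them by more than 1 on the log2 scale (to −1.37 for *Lox*), and 1 (*Sfrp1*) higher in homozygous cells, while *Fap* and *Lum*, at 0.105 and 0.163 CPM in wild-type cells, were near the smallest level that the depth can show and were not tested. In such bulk RNA fewer cells of a type and less RNA per cell cannot be told apart, and the part of this fall in the results below was not tested. The 12 pluripotency markers summed to between 2471 and 2992 CPM over the 6 libraries, 7 of them lower in heterozygous cells in edgeR (*Sox2*, *Zfp42*, *Esrrb*, *Klf4*, *Klf2*, *Dppa5a* and *Utf1*). DESeq2 called 5 of these lower, without *Klf4* and *Utf1*. In homozygous cells edgeR called 1 higher (*Zfp42*) and 1 lower (*Klf4*) than in wild-type, and DESeq2 called 1 and 0. Against heterozygous cells, 10 of the 12 were higher and 0 lower in homozygous cells in edgeR (8 and 0 in DESeq2, 10 and 0 at an unadjusted p below 0.05). Primitive endoderm markers summed to between 606 and 704 CPM, with 1 of 8 tested higher in heterozygous cells (*Cubn*, 1.28 on the log2 scale) and 1 higher (*Col4a1*) and 3 lower (*Dab2*, *Pdgfra* at −1.07, and *Sparc*) in homozygous cells, and 5 of 8 lower in homozygous than in heterozygous cells (*Gata6*, *Dab2*, *Pdgfra*, *Sparc* and *Cubn*). DESeq2 called 4 of these 5 and gave no adjusted p for *Gata6*. Neural markers summed to between 318 and 386 CPM, with 1 of 8 tested higher in heterozygous (*Nes*) and 4 higher in homozygous cells (*Sox1* at 1.39, *Pax6*, *Nes* and *Tubb3*), and 4 of 8 higher in homozygous than in heterozygous cells (*Sox1*, *Pax6*, *Tubb3* and *Elavl4*). In the last comparison DESeq2 called 3, without *Elavl4*. The neural list had 0 genes called lower in each comparison, but it did not move as one. Fitted values lay below 0 for 6 of the 8 in heterozygous cells and for 3 in homozygous cells (*Dcx* at −0.78, *Map2* and *Elavl3*). Against heterozygous cells 4 of the 8 lay below 0 in homozygous cells (*Dcx* at −0.72, *Map2*, *Elavl3* and *Nes*), 2 of the 8 at an unadjusted p below 0.05 in edgeR.

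To compare levels between genes, CPM were divided by the length of each gene's merged exons in kb. In wild-type cells *Snrpn* had the highest level per length, at 73.4 and 76.5 CPM per kb in the 2 libraries, followed by *Peg10* at 59.2 in both. *Mest* stood at 34.3 and 35.6 CPM per kb and *Peg3* at 26.1 and 27.9. These 4 genes, the leading gene of all loci but that of *Plagl1*, were far above the other 6. *Ndn* was at 4.76 and 5.02 CPM per kb, and *Magel2* and *Plagl1* followed with means of 1.44 ± 0.129 and 1.31 ± 0.127 (SD, n = 2). *Usp29* (0.554 ± 0.000707 CPM per kb), *Sgce* (0.476 ± 0.0208) and *Zim1* (0.217 ± 0.0804; SD, n = 2 for each) were the lowest. In this order the libraries of each gene lay apart from those of the next, except that *Magel2* and *Plagl1* overlapped. Not scaled by length, the 10 genes ranked between the 55.4 percentile (*Zim1*) and the 98.7 percentile (*Peg10*) of CPM among the genes with counts in wild-type cells.

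**Figure D1:**
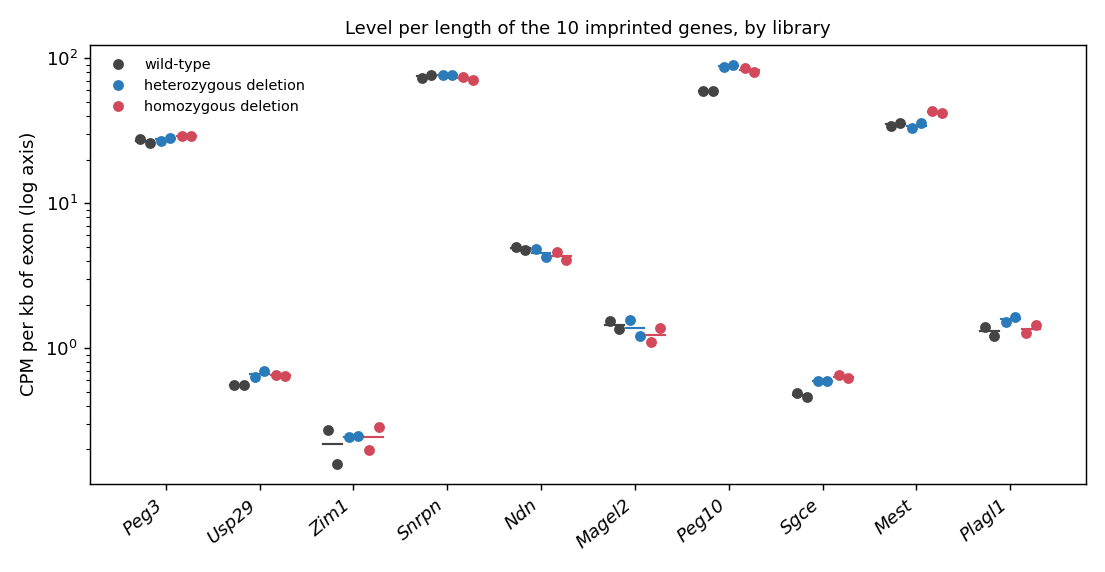
CPM per kb of exon (log axis) of the 10 genes in each library, with wild-type in gray, heterozygous in blue and homozygous deletion in red; points are the 2 libraries of a genotype and short bars their means. *Snrpn*, *Peg10*, *Mest* and *Peg3* lie above 20 CPM per kb in all 6 libraries, and the other 6 genes lie near or below 5.

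The exon lengths behind these values merge the exons of all annotated transcripts of a gene, from 2.16 kb for *Snrpn* to 18.1 kb for *Usp29*. Exons that the cells do not use would lower a level per length, and their use was not tested. The lengths also carry some doubt where annotated genes overlap. *Snurf*, whose 216 exon bases lie wholly inside *Snrpn* exons, is listed at 0 counts in all 6 libraries, and in all 27.3% of the *Snrpn* exon bases are shared with another gene of the same strand. On the opposite strand, 23.1% of the *Mest* exon bases (912 bases) overlap *Copg2* and 14.3% of those of *Usp29* overlap *Zim3*, which had 0 counts throughout. The strand setting of the authors' counting is not given in the sources used here, so reads of *Mest* and *Copg2* from the shared bases may not be told apart. *Snrpn* also has a close paralog, *Snrpb*, which could share reads with it. Exons of *Peg3*, *Zim1*, *Ndn*, *Magel2*, *Peg10* and *Sgce* overlapped no other annotated exon.

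In heterozygous cells *Peg10* rose, and none of the other 9 genes passed the test. For *Peg10* the wild-type libraries gave 11614 and 10093 counts (395 and 395 CPM), and the heterozygous ones 14558 and 16055 counts (585 and 603 CPM). The heterozygous libraries lay far above the wild-type pair, which differed by less than 1 CPM. The fitted log2 fold change was 0.59 (SE 0.0423, 95% interval 0.50 to 0.68), a 1.5-fold higher level, with a Benjamini-Hochberg adjusted p of 3.96e-08 in edgeR's quasi-likelihood test. It ranked 8 among the 16951 genes tested by p-value. Across all tested genes, 5.14% passed an adjusted p of 0.05 in this comparison, 2.23% as higher and 2.91% as lower. Of the 10 imprinted genes edgeR called 1 higher and 0 lower, as did DESeq2, which called 198 higher and 284 lower of all genes. At an unadjusted p below 0.05 there were 4 higher and 0 lower of the 10. The share of all tested genes at that threshold was not counted. With a log2 fold change beyond 1 also required, 0.165% of all genes were called and none of the 10. The median log2 fold change of the 10 genes was 0.10, against 7.69e-06 over all tested genes, and their range was −0.11 to 0.59.

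*Sgce*, the neighbor of *Peg10*, was at 5.20 and 4.89 CPM in wild-type and at 6.30 and 6.31 CPM in heterozygous cells. Its libraries did not overlap between the genotypes, but the log2 fold change of 0.32 (SE 0.122) had an adjusted p of 0.168 in edgeR. *Usp29* was at 9.999 and 10.02 CPM in the wild-type libraries and at 11.5 and 12.6 CPM in heterozygous ones. Here too the heterozygous pair was the higher one, with a log2 difference of 0.27 (SE 0.0938, edgeR adjusted p = 0.125) and an interval of 0.07 to 0.46. *Plagl1* was at 10.95 and 9.55 CPM in wild-type cells against 11.9 and 12.8 CPM. Its log2 difference of 0.26 (SE 0.101, edgeR adjusted p = 0.165) did not pass the test either, although the libraries did not overlap. These 4 genes, *Peg10* included, were the ones whose heterozygous libraries lay above both wild-type libraries, and in the other 6 the 2 genotypes overlapped. How many of all tested genes separated in this way was not counted in any comparison. With 2 libraries against 2, the smallest p of a two-sided exact permutation test is 0.333, so such a separation is a description only.

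Among those 6, the precision differed with the depth. Wild-type libraries gave *Peg3* 10947 and 8884 counts (372 and 348 CPM), against 8955 and 10012 counts (360 and 376 CPM) with the heterozygous deletion. The 2 genotypes overlapped, and the log2 difference was 0.03 with an interval of −0.06 to 0.12 (edgeR adjusted p = 0.808). *Snrpn* was at 159 and 165 CPM in wild-type and at 165 and 167 in heterozygous cells, with an interval of −0.06 to 0.13. *Mest* was at 135 and 140.4 CPM and at 130.4 and 141, with an interval of −0.12 to 0.07. For *Zim1*, counted 65 and 33 times in wild-type against 49 and 53 times with the heterozygous deletion, the interval ran from −0.38 to 0.69, so neither a moderate rise nor a moderate fall could be seen at this depth. *Ndn* and *Magel2* had log2 differences of −0.11 and −0.07, with edgeR adjusted p of 0.604 and 0.876.

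**Figure D2:**
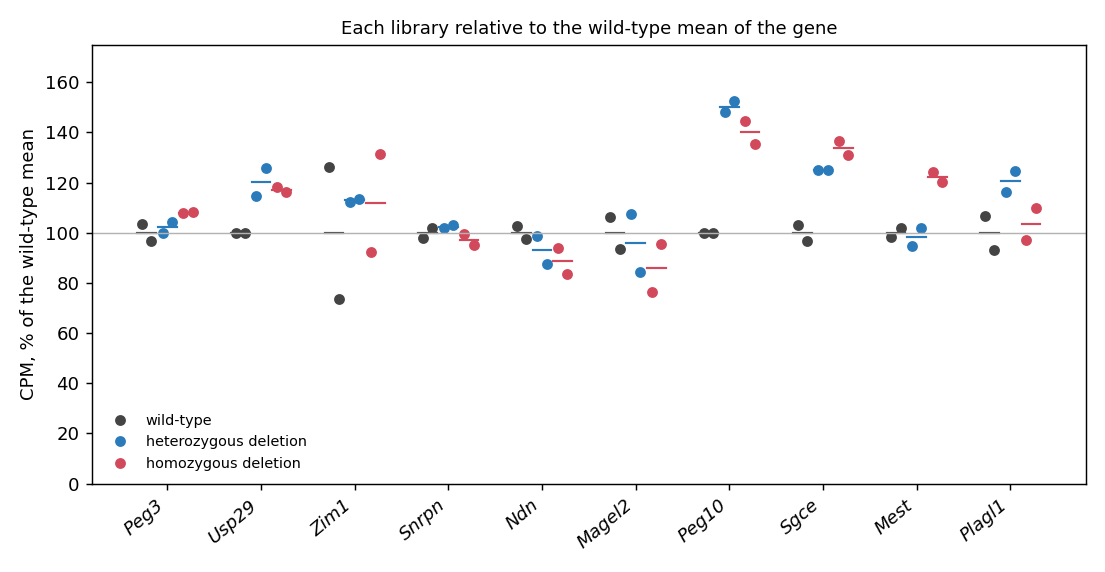
CPM of each gene in each library as a percent of the mean of its 2 wild-type libraries; points are libraries, short bars are genotype means, and colors are gray for wild-type, blue for heterozygous and red for homozygous deletion. *Peg10* lies near 150% in heterozygous and 140% in homozygous cells, and *Mest* stands apart in homozygous cells only. The wild-type and the homozygous pair of *Zim1* spread widely, unlike its heterozygous pair.

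In homozygous cells 3 of the 10 genes rose, *Peg10*, *Mest* and *Sgce*, and 0 fell. Of all tested genes 21.4% passed the test in this comparison, 10.9% as higher and 10.5% as lower, and 2.14% passed with the fold threshold, which none of the 10 did. DESeq2 called 2 of the 10 higher and 0 lower, and at an unadjusted p below 0.05 edgeR gave 5 higher and 0 lower. The share of all tested genes higher in DESeq2 or at an unadjusted p is not given, so these counts stand without a background. The median log2 fold change of the 10 genes was 0.13, against −0.01 over all tested genes, with a range of −0.22 to 0.49. The 2 comparisons with wild-type share the wild-type libraries, so their values are given side by side and are not independent.

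*Peg10* had 13102 and 13937 counts in the homozygous libraries, or 572 and 535 CPM against 395 and 395 in wild-type. Both homozygous libraries were well above the wild-type pair and below the heterozygous one. The log2 fold change was 0.49 (SE 0.0423, interval 0.40 to 0.57), a 1.40-fold higher level (edgeR adjusted p = 4.33e-08). *Mest* was at 135 and 140.4 CPM in wild-type, at 130.4 and 141 in heterozygous and at 171 and 166 in homozygous cells. Only the homozygous libraries stood apart, by a log2 fold change of 0.29 over wild-type (SE 0.0471, interval 0.19 to 0.39, edgeR adjusted p = 1.32e-04), a 1.2-fold higher level. *Copg2*, which overlaps *Mest* on the opposite strand and encodes a coatomer subunit, was at 54.0 ± 0.953 CPM in wild-type and 57.6 ± 2.07 in homozygous cells (SD, n = 2 for each), with a log2 difference of 0.09 and an edgeR adjusted p of 0.286.

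Reads of *Sgce* numbered 153 and 125 in wild-type cells, 157 and 168 with the heterozygous deletion and 158 and 172 with the homozygous deletion. The homozygous libraries, at 6.89 and 6.60 CPM, were above both wild-type libraries at 5.20 and 4.89. The log2 fold change of 0.42 (SE 0.122, interval 0.16 to 0.67) was called with an edgeR adjusted p of 0.0188. This call did not hold with DESeq2 (adjusted p = 0.139), without wild-type replicate 1 (0.0728), without wild-type replicate 2 (0.115) or without homozygous replicate 1 (0.0715, all 3 in edgeR), although the log2 fold change stayed between 0.36 and 0.46 in all 14 alternatives.

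At the *Peg3* locus, *Peg3* and *Usp29* lay above wild-type in both homozygous libraries without passing the test. *Peg3* was at 388 and 390 CPM, above both wild-type libraries at 372 and 348. Its log2 difference of 0.11 had an interval of 0.02 to 0.20 and an edgeR adjusted p of 0.0784. *Usp29* was at 11.8 and 11.6 CPM against 9.999 and 10.02 CPM in wild-type, a log2 difference of 0.23 (SE 0.0950, edgeR adjusted p = 0.0976). *Zim1*, at 1.61 and 2.30 CPM against 2.21 and 1.29, overlapped wild-type, with an interval of −0.38 to 0.69.

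All 3 genes of the *Snrpn* locus had fitted values below 0 in homozygous cells, and none passed. *Snrpn* was at 161 and 154 CPM, overlapping wild-type at 159 and 165, with an interval of −0.13 to 0.05. *Ndn* was at 17.0 and 15.1 CPM against 18.5 and 17.6. It was the gene whose homozygous libraries both lay below wild-type, by a log2 difference of −0.18 (SE 0.0879, interval −0.36 to 0.01, edgeR adjusted p = 0.169). *Magel2* was at 5.10 and 6.37 CPM against 7.11 and 6.26, with overlapping libraries and a log2 difference of −0.22 (SE 0.143, edgeR adjusted p = 0.323). *Plagl1* was at 9.95 and 11.3 CPM, overlapping its wild-type libraries, with a log2 difference of 0.05 (interval −0.17 to 0.27).

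Between the 2 deletion genotypes, *Mest* was the gene that passed the test. Its homozygous libraries, at 171 and 166 CPM, stood above the heterozygous libraries at 130.4 and 141, a log2 fold change of 0.31 (SE 0.0472, interval 0.21 to 0.41, 1.24-fold, edgeR adjusted p = 5.03e-05). *Copg2* also passed in this comparison, with a log2 fold change of 0.21 (edgeR adjusted p = 0.0104). Of all tested genes 25.8% were called here, 12.9% as higher and 12.9% as lower, and 1.39% with the fold threshold. Of the 10 genes 1 was called higher and 0 lower in edgeR and in DESeq2 alike, and 1 and 2 at an unadjusted p below 0.05. The share of all tested genes higher in DESeq2 is not given here, and that at an unadjusted p was not counted here either, so these counts also stand without a background. *Peg10* had a log2 difference of −0.10 (interval −0.19 to −0.01, edgeR adjusted p = 0.0837), so that the rise in heterozygous cells was not shown to be the larger one. *Plagl1* had a log2 difference of −0.22 (interval −0.43 to −0.00, edgeR adjusted p = 0.130), its homozygous libraries lying below both heterozygous ones. The homozygous libraries of 3 genes lay wholly above the heterozygous ones and those of 3 wholly below, and 4 overlapped. The share of all tested genes that separated in this way was not counted, so these numbers are a description only. The median over the 10 genes was −0.05, against −0.02 for all tested genes.

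**Figure D3:**
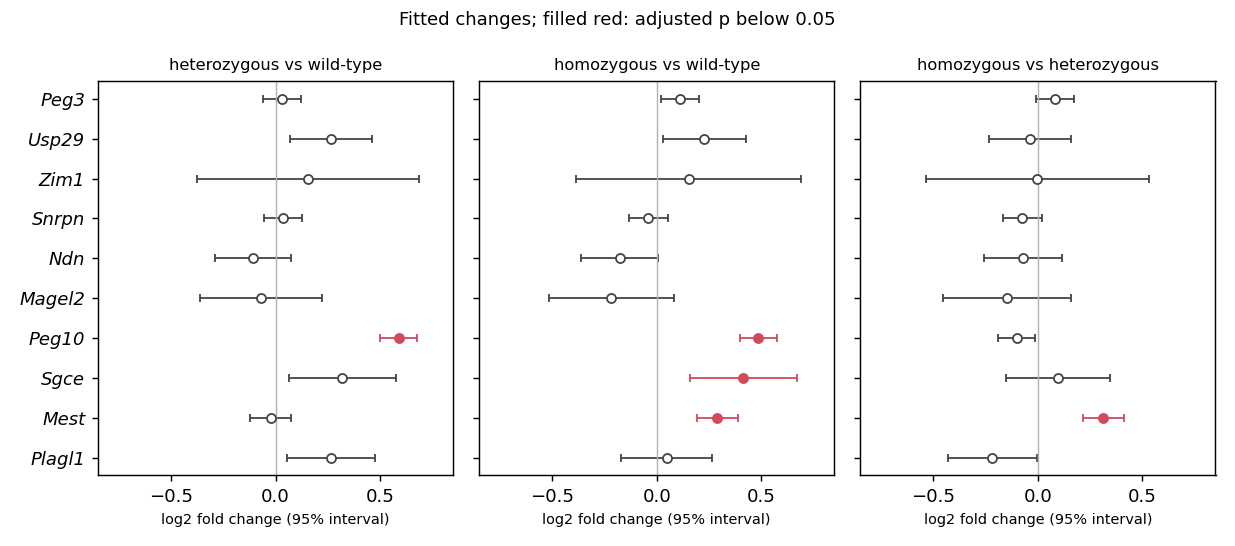
Fitted log2 fold changes (x axis) of the 10 genes in the 3 comparisons, with bars for the 95% interval of each fit and filled red points for an adjusted p below 0.05. *Peg10* is filled in both comparisons with wild-type, *Sgce* in the homozygous one, and *Mest* in both comparisons of homozygous cells.

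Ratios within a locus describe how neighbors stood to each other. Per kb of exon, *Peg10* exceeded *Sgce* by 120.8 and 128.5 times in the wild-type libraries, by 148 and 152 times in the heterozygous and by 132 and 129.0 times in the homozygous. The ratio was thus higher in heterozygous cells (150 ± 3.18, against 125 ± 5.44; SD, n = 2 for each), while the homozygous ratio of 130 ± 2.14 lay above both wild-type libraries, the nearer of which it exceeded by less than they differed from each other. *Peg3* exceeded *Usp29* 50.5 and 47.1 times in wild-type cells, 42.5 and 40.5 times with the heterozygous deletion and 44.5 and 45.5 times with the homozygous one. In this pair both deletion genotypes lay below wild-type. *Ndn* exceeded *Magel2* between 2.96 and 4.17 times over the 6 libraries, with overlapping genotypes. With 2 libraries a genotype the smallest p of a two-sided exact permutation test is 0.333, so these ratios are given as descriptions. Their size also depends on the merged exon lengths.

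The other genes of the 5 loci were taken from a list of 25, of which 23 were in the table and 20 tested. In heterozygous cells 0 of the 20 passed in either direction in edgeR and 0 in DESeq2, and 1 was higher and 2 lower at an unadjusted p below 0.05. In homozygous cells 4 were higher than in wild-type, *Ube3a* (0.19 on the log2 scale), *Atp10a* (0.19), *Ppp1r9a* (0.35) and *Ltv1* (0.15). Another 4 were lower, *Peg12* (−0.69), *Snhg14* (−0.37), *Tfpi2* (−0.85) and *Pon2* (−0.49), and these 8 are named here after their values were seen. DESeq2 called 2 and 2 of these 8, without *Atp10a*, *Ltv1*, *Snhg14* and *Tfpi2*. At the *Snrpn* locus, *Ube3a*, a ubiquitin ligase gene that is imprinted in neurons, was thus higher and the retrotransposed *Peg12* lower with both tools, while *Snrpn*, *Ndn* and *Magel2* did not pass. The value of the long noncoding RNA *Snhg14* rests on unequal homozygous libraries, at 66.9 and 104 CPM, against 115 and 105 in wild-type. At the *Peg10* locus 7 neighbors were tested; none passed in heterozygous cells, in which *Peg10* rose. *Casd1*, the neighbor on the far side of *Sgce*, had log2 differences of 0.08 and 0.04 in the 2 genotypes. Neighbors of *Mest* (4 tested) included none that passed against wild-type. Between homozygous and heterozygous cells 4 of the 20 were higher (*Ube3a*, *Ppp1r9a*, *Copg2* and *Ltv1*) and 5 lower (*Mkrn3*, *Peg12*, *Snhg14*, *Calcr* and *Pon2*) in edgeR. DESeq2 called 3 higher, without *Ube3a*, and 0 lower, and at an unadjusted p below 0.05 edgeR gave 5 and 6.

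**Figure D4:**
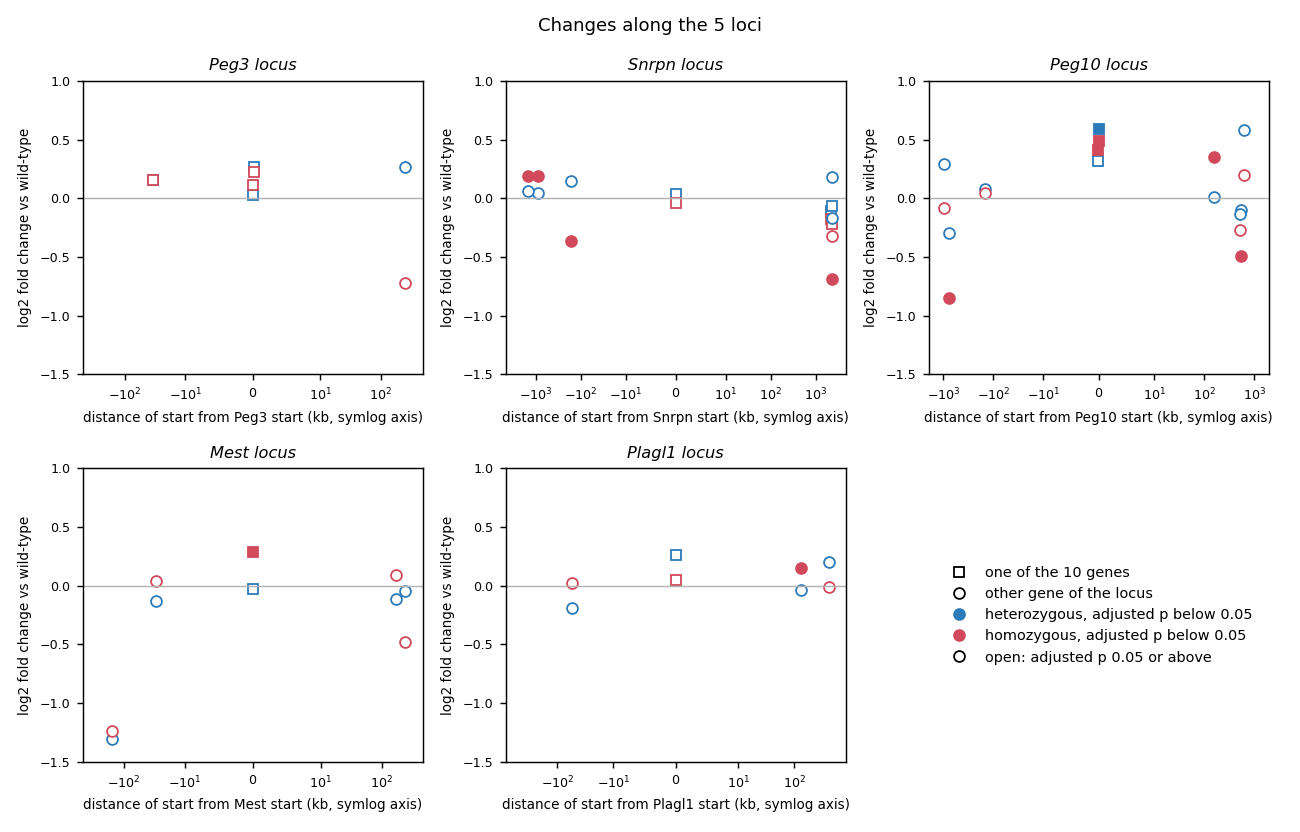
Log2 fold changes against wild-type (y axis) of the 10 genes (squares) and the other tested genes of their loci (circles), plotted by the distance in kb of each start from the start of the gene that names the locus (symmetric log axis); blue is heterozygous, red is homozygous, and filled symbols have an adjusted p below 0.05. The only filled blue symbol is *Peg10*, and in homozygous cells filled symbols lie on both sides of 0 at the *Snrpn* and *Peg10* loci.

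As background for each chromosome, the median log2 fold change over the 815 tested genes of chromosome 6 was 0.000358 in heterozygous and −0.00402 in homozygous cells. For the 1352 genes of chromosome 7 the medians were −0.00729 and −0.0479, and for the 799 of chromosome 10 they were −0.0189 and −0.0300. Such medians are held near 0 by the scaling of the libraries and do not say how many genes moved. Against wild-type, the homozygous deletion had 74 higher and 90 lower genes on chromosome 6, 82 and 146 on chromosome 7, and 73 and 97 on chromosome 10. In heterozygous cells, in which *Peg10* was called, 22 genes of chromosome 6 were higher and 21 lower.

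Paternally expressed genes of other loci gave a wider range of changes than the 10 genes, most widely in the comparisons that include heterozygous cells. In homozygous cells against wild-type their log2 fold changes ran from −0.28 to 0.67, against −0.22 to 0.49 for the 10. Shares of all tested genes that passed were 5.14% in heterozygous cells, 21.4% in homozygous cells and 25.8% between the deletion genotypes. In heterozygous cells 4 of 17 tested were higher (*Nnat*, *Slc38a4*, *Sfmbt2* and *Igf2*) and 3 lower (*Nap1l5*, *Peg13* and *Gab1*), of which DESeq2 did not call *Slc38a4* and *Igf2* and gave no adjusted p for *Nap1l5*. *Nap1l5*, a nucleosome assembly protein-like gene inserted by retrotransposition, was counted 28 and 24 times in wild-type cells, 0 and 1 times with the heterozygous deletion and 28 and 35 times with the homozygous deletion. It was thus at least 8.12-fold lower in heterozygous than in wild-type cells, and at least 11-fold lower than in homozygous cells, against a floor of 3 counts per library. *Peg13*, a noncoding RNA within *Trappc9*, was at 6.80 and 6.57 CPM in wild-type, at 1.73 and 1.31 in heterozygous and at 7.11 and 7.95 in homozygous cells. Its log2 fold change was −2.14 in heterozygous cells (edgeR adjusted p = 8.22e-08) and 0.17 in homozygous cells (edgeR adjusted p = 0.358). None of the 10 genes followed either pattern; the lowest fitted value among them in heterozygous cells was the −0.11 of *Ndn*. In homozygous cells 4 of the 17 were higher (*Igf2*, *Kcnq1ot1*, *Zdbf2* and *Gab1*) and 1 was lower (*Inpp5f*), of which DESeq2 called *Zdbf2* and *Gab1*. Between the deletion genotypes 5 were higher (*Nap1l5*, *Peg13*, *Kcnq1ot1*, *Zdbf2* and *Gab1*) and 6 lower, among them *Airn*, the noncoding RNA of the *Igf2r* locus, with 35 and 39 heterozygous and 16 and 19 homozygous counts (log2 −1.0, edgeR adjusted p = 0.0165, with no adjusted p in DESeq2). DESeq2 called 3 higher and 4 lower there.

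Of 16 maternally expressed genes tested, 1 was higher in heterozygous cells (*H19*), and in homozygous cells 5 were higher (*H19*, *Cdkn1c*, *Phlda2*, *Igf2r* and *Grb10*) and 5 lower (*Meg3*, *Rian*, *Mirg*, *Ascl2* and *H13*). DESeq2 called the same 5 as higher and 2 as lower, *Rian* and *Mirg*, and *Meg3* was at 233 and 380 CPM in the 2 homozygous libraries. Between the deletion genotypes 7 were higher and 6 lower in homozygous cells (7 and 4 in DESeq2). *Zim1*, the one of the 10 genes known for maternal expression, passed in no comparison. Of 11 genes that keep or remove imprinting methylation, 2 were lower in heterozygous cells, the de novo methyltransferase *Dnmt3a* and its cofactor *Dnmt3l*. In homozygous cells *Dnmt1*, *Tet1* and *Tet2* were higher and *Zfp57* was lower, by −0.17 on the log2 scale; DESeq2 called *Dnmt1* and *Tet2* and neither *Tet1* (adjusted p = 0.227) nor *Zfp57* (adjusted p = 0.0807). *Zfp57*, whose motif is marked in the *Mest* sequence above, was at 190 and 192 CPM in wild-type cells, at 166 and 170 CPM with the heterozygous and at 155 and 184 CPM with the homozygous deletion. Its log2 difference was −0.19 in heterozygous cells (edgeR adjusted p = 0.0688) and 0.02 between the deletion genotypes (edgeR adjusted p = 0.867). A link of *Zfp57* to the *Mest* level was not tested. Between the deletion genotypes 5 of the 11 were higher in homozygous cells and 0 were lower in both edgeR and DESeq2, against 6 and 0 at an unadjusted p below 0.05.

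RefSeq promoter windows of GRCm38.p6, from 250 bases before to 50 after each start, were given for 8 of the 10 genes, in 13 windows, and not for *Peg10* and *Sgce*. The TGCCGC hexamer, searched on both strands, was in 5 of the 13 windows, those of 4 genes, *Mest* (2 overlapping windows with 2 matches each), *Zim1*, *Snrpn* and *Plagl1*. It was in 11.6% of all 32851 windows. GCCATNTT, the motif of YY1, a zinc finger factor with many sites inside *Peg3*, was in 0 of the 13 windows on either strand and in 6.05% of all windows. The window of *Plagl1* held 26 CpG sites, that of *Zim1* 20 and those of *Mest* up to 17, against a median of 7 over all windows. The 4 windows of *Snrpn* held between 2 and 7, and those of *Peg3* and *Usp29*, which overlap each other, 13 and 17. *Mest*, *Plagl1*, *Zim1* and *Snrpn*, which carry the hexamer, included 1 gene that was called and 3 that were not. *Peg3*, *Usp29*, *Ndn* and *Magel2*, whose windows lack it, were not called. *Peg10* and *Sgce*, which were called, had no window, so these data do not relate the hexamer to the calls.

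For the leading gene of each locus, the 3 genes with the most similar profile over the 6 libraries were taken by the Pearson correlation of log2 CPM, as a description that the shared genotypes alone can raise. For *Peg10* these were *Perp* (r = 0.997), *Spsb4* (0.994) and *Limk2* (0.990). For *Mest* they were *Ccna2*, *Etf1* and *Etaa1* (r = 0.999 for each), and for *Peg3* they were *Pamr1* (0.990), *Bdp1* (0.989) and *Gm6254* (0.988). *Snrpn* was nearest to *Mtap* (0.996), *Ccndbp1* (0.992) and *Sec22b* (0.991), and *Plagl1* to *Gm13199* (0.999), *Tnrc6a* (0.990) and *Zfp386* (0.988). None of these 15 genes was one of the other genes of the 5 loci. *Pamr1*, *Gm6254*, *Spsb4* and *Gm13199* had low levels, with means over the 6 libraries of 0.612, 1.35, 2.26 and 2.8 CPM.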

How the data were processed

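The authors deposited whole-number read counts per gene for 6 polyA RNA libraries prepared with a stranded kit, without normalization. The submitters' processing notes name Trimmomatic 0.39, STAR 2.6.1d, SAMtools 1.9, featureCounts 1.6.4 and DESeq2 1.22.2 with mm10/GRCm38; the roles, the strand setting and the annotation release are not given in the sources used here. The methods state biological triplicates, and the labels give 2 libraries per genotype, which were used. The 37 mitochondrial genes are listed at 0.

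Counts were fitted with edgeR 4.0.16 in R 4.3.3: TMM factors, at least 10 counts in at least 2 of 6 libraries, 1 quasi-likelihood model of 3 genotypes without a replicate term, and Benjamini-Hochberg adjustment over 16951 genes. A gene was called at an adjusted p below 0.05, and under a second rule also at an absolute log2 fold change above 1. The fit was tested on simulated data. Floors of 3 counts cover counting error only. The 10 genes and the lists of locus neighbors, other imprinted genes, imprint maintenance genes and markers were chosen with earlier results of these data known. From the lists of imprinted, neighboring and maintenance genes, those past the second rule in any comparison were named with values, and other calls as counts, with names where they were few; marker lists were given as sums and counts. Alternatives were DESeq2 1.42.0, its size factors, total counts, no filter, filterByExpr, only the libraries compared, a replicate block, robust estimation and each library left out. GENCODE GRCm38 models held 55144 of the gene identifiers, and they gave positions and exon lengths of the 10 genes and the other genes of their loci. Tables were summarized in Python 3.11.15 with pandas 2.3.3. *Peg3os* and *Hymai* were not matched.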

Additional observations from a re-analysis of the deposited data

Results flagged for a closer look

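*Mest* was singled out because the heterozygous and the homozygous deletion, set against the same wild-type libraries, differed in a direct test. Its log2 fold change between homozygous and heterozygous cells was 0.313 (SE 0.0472, edgeR adjusted p = 5.03e-05), and the homozygous libraries were the higher ones in 2 of 2 cases. The value lay between 0.246 and 0.368 in all 14 alternatives, with an adjusted p of at most 0.003. Over the same libraries the summed fibroblast markers were at 1575 and 1517 CPM in heterozygous and 1057 and 1029 CPM in homozygous cells. Of the 22 tested, edgeR called 18 lower and 2 higher in homozygous cells. The pluripotency markers summed to 2552 and 2471 CPM against 2992 and 2805, with 10 of 12 higher in homozygous cells, while 5 of 8 primitive endoderm markers were lower and 4 of 8 neural markers higher. In the neural list 0 genes were called lower, and 4 of the 8 had fitted values below 0. The counts do not separate mESCs from feeders, so the cells behind a change in a marker are not known. The part of these lists in the *Mest* difference was not tested.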

How the results depend on the processing

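The calls of *Peg10* against wild-type and of *Mest* in homozygous cells held in all 14 alternatives, and *Sgce* in homozygous cells kept its call in 10 of 14. Requiring a log2 fold change beyond 1 left 0 of the 10 genes called higher in each comparison, and 7 higher and 21 lower genes of all tested in heterozygous, 46 and 316 in homozygous, and 84 and 152 between deletion genotypes. DESeq2 called 198 higher and 284 lower genes in heterozygous cells, 974 lower genes in homozygous cells and 1135 lower genes between the deletion genotypes. Only the libraries compared gave 571 higher genes in heterozygous cells. Total counts gave 1183 higher genes in homozygous cells, and 1391 higher and 3337 lower genes between the deletion genotypes, 2 of them of the 10 genes (*Peg10* and *Snrpn*), and a *Plagl1* value in homozygous cells of −0.00889. The *Zim1* value between deletion genotypes turned to 0.0112 with DESeq2 size factors, 0.0035 with DESeq2 and 0.0045 with only the libraries compared. Leaving out 1 library gave 157 to 569 higher and 194 to 733 lower genes in heterozygous cells, 1089 to 1803 and 1026 to 1801 in homozygous, and 1457 to 2174 and 1400 to 2165 between deletion genotypes, where it called 0 to 1 of the 10 genes lower (*Peg10*, −0.15, without homozygous replicate 1). It turned the direction of uncalled genes: *Peg3* (−0.0177 to 0.081), *Zim1* (−0.16 to 0.61), *Magel2* (−0.25 to 0.10) and *Mest* (−0.0801 to 0.0285) in heterozygous cells, *Zim1* (−0.15 to 0.61) and *Plagl1* (−0.0478 to 0.15) in homozygous cells, and *Usp29* (−0.10 to 0.0291), *Zim1* (−0.29 to 0.22), *Ndn* (−0.16 to 0.0171) and *Magel2* (−0.32 to 0.034) between deletion genotypes. The cause was not tested. Libraries of the same number did not deviate together (correlations of −0.125 to 0.0262), and the replicate block left 1, 3 and 1 of the 10 genes called higher, with *Sgce* in homozygous cells at 0.42 (adjusted p = 0.0236 in edgeR). Depth limits *Zim1* most, with 33 to 65 counts per library.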
